A study of Bos taurus with 16 samples.

Results

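Untreated cultures of theca interna cells from cattle ovaries are described here through the 4 control arrays of a series of 16 arrays. The control arrays were chosen by their label alone, and no comparison between treatments is made. Theca cells were pooled from about 50 follicles of 4 to 6 mm per culture experiment, taken from the ovaries of adult cattle after slaughter. They were plated in 24-well plates and kept for 6 days without serum. The 4 control cultures received no hormone and gave 1 array each. By the labels' protocol the experiment was done 4 times on separate batches of ovaries, but no label ties a replicate number to a batch. The remaining 12 arrays, 4 per group, came from cultures given from day 3 to day 6 160 pg/ml of luteinising hormone (LH), 10 ng/ml of BMP6, a bone morphogenetic protein, or LH+BMP6. They are used below only to see whether a culture number that was high or low in the controls was so again. The cells are a primary preparation, so cells of other types from the follicle wall can be present, and fewer cells of a type and less RNA per cell cannot be told apart.

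The theca interna is the vascular layer of the ovarian follicle that lies outside the granulosa cells. Its steroidogenic cells take up cholesterol, bring it into mitochondria and turn it into androgens under the control of LH, which acts through a receptor coupled to cyclic AMP. Granulosa cells then convert the androgens into oestrogens with aromatase. Theca cells also secrete the peptide INSL3, which belongs to the relaxin family.

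All levels are log2 signals of Affymetrix bovine GeneChip arrays, summarised per probe set by robust multi-array average (RMA), and are given as mean ± SD of the 4 control arrays (n = 4). A difference of 1 on this scale is a 2-fold difference in signal. Of 24016 ranked probe sets, 13292 carried exactly 1 gene symbol and stood for 9155 genes, each represented by its brightest probe set. The probes of different genes bind with different strength, so a rank describes the signal on the array and not the number of transcripts per cell. The median over the named genes was 7.44, the lower and upper quartiles were 5.63 and 8.89, and the highest value was 14.11.

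The 4 control arrays had nearly the same distribution, with medians between 6.13 and 6.14. Pairs of them correlated across probe sets at r between 0.992 and 0.997, and probe sets are not independent replicates. Hybridisation controls, which are RNA added just before the array step, had a mean of 9.23 and 9.32 in replicates 1 and 3 but 10.46 and 10.70 in replicates 2 and 4. Poly-A controls, added before labelling, stood at 7.25 in replicate 4 and at 7.82 to 7.96 in the others. The excess of 3 prime over 5 prime signal for actin, which grows as RNA is degraded, was 1.69, 2.27, 2.49 and 2.35 in replicates 1 to 4. The same excess for GAPDH was 0.41, 0.29, 0.35 and 0.32, so replicate 1 was lowest by actin and highest by GAPDH. Results that rest on these arrays are therefore also given without replicates 1 and 3 where the value changes.

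The brightest gene was B2M, the invariant light chain of MHC class I molecules, at 14.15, 14.04, 14.12 and 14.13 in replicates 1 to 4 (14.11 ± 0.05). INSL3 ranked next of all 24016 probe sets, with 14.29, 14.18, 13.88 and 13.99 (14.08 ± 0.19). Its replicates 1 and 2 lay above replicates 3 and 4. GSTA2, an alpha-class glutathione S-transferase, followed at 14.04 ± 0.07, and its 5 probe sets ranged down to 8.51. A gene named by its locus number alone, LOC515676, stood at 13.92 ± 0.08. Thymosin TMSB10, which binds actin monomers, reached 13.81 ± 0.12, TPT1, a translation-associated protein of all cells, 13.79 ± 0.05, and the elongation factor EEF1A1 13.75 ± 0.02.

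Structural and housekeeping genes filled most of the remaining places among the 25 brightest named genes. COL1A2 and COL3A1, chains of fibrillar collagens, had 13.73 ± 0.15 and 13.62 ± 0.12. Both were lowest in replicate 1, at 13.52 and 13.45. The inhibitor of matrix metalloproteinases TIMP2 had 13.65 ± 0.05, the integrin subunit ITGB5 13.65 ± 0.03 and the ferritin heavy chain FTH1 13.56 ± 0.11. A gene annotated as BOLA, the cattle MHC class I family, had 13.55 ± 0.13, but members of this family are near-identical and share probes. The ribosomal protein genes RPS29, RPS26, RPS12, RPLP0, RPL35, RPS15, RPS14, RPL37A and RPS2 held 9 of the 25 places, all between 13.49 and 13.61. The ribosomal scaffold protein gene RACK1 had 13.49 ± 0.04. POMC, the precursor of corticotropin, had 13.88 ± 0.05, and CDK5R1, a neuronal activator of a cyclin-dependent kinase, had 13.51 ± 0.02. The other probe set of POMC stood at 7.52. Of the 4 probe sets of CDK5R1, 3 lay close together at 13.51, 13.35 and 13.28, and the last stood at 4.83. The 3 bright ones share the first part of their names and the last does not, so they are not independent readings. Whether the bright probe sets of POMC and CDK5R1 read these genes was not tested. With the mean of all probe sets of a gene in place of the brightest, 14 of the 25 genes kept a place among the 25, and INSL3, which has 1 probe set, keeps the same signal.

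**Figure D1:**
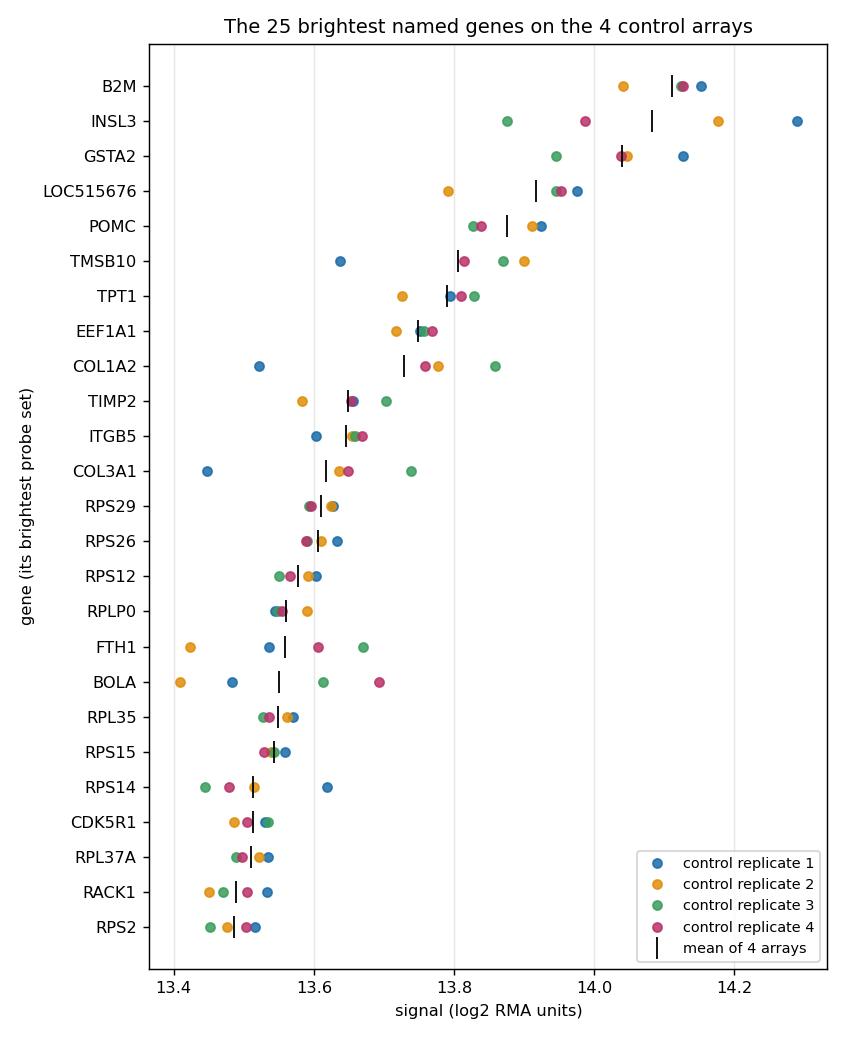
Signal (x axis, log2 RMA units) of the 25 brightest named genes (y axis) on each of the 4 control arrays, as coloured points, with the mean as a black bar. INSL3 sits beside B2M at the top, at 14.08 and 14.11, and its 4 points spread more widely than those of the ribosomal protein genes.

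The label theca cells was checked against its defining markers. All 8 measured members of the theca list lay above the lower quartile of the array (4.35). Only 12.2% of all named genes lay at or below it, so this count alone says little. Above the upper quartile of named genes lay 5 of the 8 theca markers, against 2289 of all 9155 named genes. The median of the 8 markers was 10.09 against 7.44 for all named genes, and below the 10.53 of the fibroblast list given further on. HSD3B1, which makes progesterone from pregnenolone, had 11.84, 11.74, 11.37 and 11.52 in replicates 1 to 4 (11.62 ± 0.21). CYP11A1, the mitochondrial enzyme that cuts the cholesterol side chain, had 11.17, 11.27, 11.25 and 11.32 (11.25 ± 0.06), with no culture apart from the rest. The lipoprotein receptor SCARB1 stood at 10.69 ± 0.16. NR5A1, the nuclear receptor that drives steroidogenic genes, stood at 9.50 ± 0.16, and 1 of its 4 probe sets was at 3.48.

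The remaining 3 markers lay below the upper quartile, and CYP17A1 also below the median of all named genes. STAR, which moves cholesterol into mitochondria, had 8.52, 8.36, 8.21 and 8.72 (8.46 ± 0.22). LHCGR, the LH receptor gene, had 8.06, 8.13, 7.85 and 7.50 (7.88 ± 0.28), and its other probe sets were at 7.45 and 3.79. CYP17A1, the enzyme that commits steroids to androgens, had 8.56, 7.03, 6.59 and 7.35 (7.38 ± 0.85). Replicate 1 stood apart for CYP17A1, more than 1 log2 unit above the other cultures. STAR was highest in replicate 4 and the brightest LHCGR probe set in replicate 2. The LHCGR probe set at 7.45 was highest in replicate 1, at 7.95 against 6.88 to 7.57.

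The wider list of steroid synthesis genes had 15 measured members with a median of 9.42, and 9 of them lay above the upper quartile. FDX1, the ferredoxin that passes electrons to CYP11A1, was the brightest at 11.74 ± 0.05. The transcription factor genes GATA6 and GATA4 had 11.01 ± 0.10 and 9.42 ± 0.05. TSPO, an outer mitochondrial membrane protein, had 9.95 ± 0.26, and HSD17B11, a dehydrogenase of steroids and lipids, 9.18 ± 0.34. Genes for partner proteins of CYP17A1 differed, with 8.70 ± 0.07 for the reductase gene POR and 7.05 ± 0.04 for cytochrome b5, CYB5A. NR0B1, a repressor of NR5A1, had 5.46 ± 0.28. NR5A2, the granulosa and luteal relative of NR5A1, had 3.53 ± 0.07, which is below the lower quartile of the array.

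Genes of cholesterol synthesis and uptake were bright as a group. Of 16 measured members 11 lay above the upper quartile, with a median of 9.13. At or below the lower quartile of the array lay 0 of them, and only 12.2% of all named genes. HMGCS1, an early enzyme of the mevalonate pathway, had 11.63, 12.08, 11.89 and 11.64 (11.81 ± 0.22). The sterol demethylation enzyme MSMO1 had 11.75 ± 0.11, the farnesyl diphosphate synthase FDPS 10.54 ± 0.10, the squalene epoxidase SQLE 10.30 ± 0.15 and the lanosterol demethylase CYP51A1 9.75 ± 0.19. Replicate 2 was the highest of the 4 cultures for each of these 5 genes.

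Secreted hormones and growth factors ranged from 3.58 to 14.08. Of 25 measured genes 9 lay above the upper quartile and 4 at or below the lower quartile of the array, near the share of all named genes there (12.2%). After INSL3 came STC1, stanniocalcin, with 11.86, 11.81, 11.14 and 11.05 (11.47 ± 0.43). Replicates 1 and 2 lay above replicates 3 and 4 without overlap. Adrenomedullin, ADM, a vasodilator peptide, had 11.12 ± 0.29. NMB, the bombesin-like peptide neuromedin B, had 12.18, 11.29, 9.71 and 10.58 (10.94 ± 1.05), a range of 2.46, and only 5 genes on the array spanned 2 log2 units or more. INHA, the inhibin alpha subunit, had 11.28, 10.52, 10.03 and 10.41 (10.56 ± 0.52) and was highest in replicate 1.

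Receptor genes were mostly dimmer. Of 32 measured receptor genes 6 lay above the upper quartile and 8 at or below the lower quartile of the array (12.2% of all named genes), with a median of 5.69. PDGFRA, the receptor of mesenchymal cells for platelet-derived growth factor, was the brightest at 10.76 ± 0.07, though its other probe sets were at 5.46 and 5.02. KIT, the receptor for the granulosa product KIT ligand, had 10.16, 10.28, 10.49 and 9.91 (10.21 ± 0.24), and its dimmest probe set was at 3.82. IGF2R had 10.19 ± 0.15, VLDLR 8.55 ± 0.64 and the insulin receptor INSR 8.13 ± 0.52, and their dimmest probe sets 8.11, 3.04 and 4.01. VLDLR was higher in replicates 3 and 4 (9.30 and 8.87) than in 1 and 2 (8.05 and 7.98), and INSR ran the other way, with 8.39 and 8.74 against 7.68 and 7.72.

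Receptors for BMPs and activins, the family of BMP6, ranged widely in signal, also between probe sets of the same gene. The type 1 receptor genes BMPR1A and ACVR1 had 9.33 ± 0.08 and 9.12 ± 0.09, and their other probe sets 6.96 and 7.32. BMPR1B had 6.09 ± 0.07, and its other probe set 3.66. The type 2 receptor genes ACVR2B, BMPR2 and ACVR2A had 6.60 ± 0.11, 5.35 ± 0.22 and 5.20 ± 0.07, and the other probe sets of BMPR2 4.82 and 3.71. Of the TGF-beta receptors TGFBR2 had 8.94 ± 0.17, with its other probe set at 5.32, and TGFBR1 4.97 ± 0.09. Downstream, the shared mediator SMAD4 had 9.81 ± 0.07 and the activin and TGF-beta mediator SMAD2 8.56 ± 0.10. The BMP target genes ID2 and ID1, inhibitors of DNA binding, had 9.04 ± 0.38 and 8.32 ± 0.31 in these cultures without added BMP6. Both were lowest in replicate 1 (8.52 and 7.87), and their other probe sets stood at 5.60 and 4.15. FSTL3, which binds activins, had 7.81 ± 0.28.

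Receptors for several other hormones were dim. Oestrogen receptors ESR1 and ESR2 had 3.75 ± 0.20 and 4.80 ± 0.12, the progesterone receptor PGR 3.95 ± 0.10, the oxytocin receptor OXTR 3.78 ± 0.10, the TSH receptor TSHR 3.72 ± 0.10 and the prostaglandin receptor PTGER2 3.19 ± 0.07. The prostaglandin receptor PTGER4 had 7.68 ± 0.19 and PTGFR 4.58 ± 0.30. The glucocorticoid receptor NR3C1 had 7.93 ± 0.14, with its other probe set at 4.16. The growth hormone receptor GHR had 7.07 ± 0.26 over the brightest of 11 probe sets, and the prolactin receptor PRLR 5.41 ± 0.39. The growth factor receptors FGFR1, FGFR2, PDGFRB, IGF1R and MET had 6.47 ± 0.03, 5.97 ± 0.36, 5.32 ± 0.18, 5.02 ± 0.08 and 4.17 ± 0.10. LRP8, a relative of VLDLR, had 3.88 ± 0.19.

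Genes of the path from the LH receptor to cyclic AMP had a median of 7.68, close to that of all named genes, and 10 of 26 lay above the upper quartile. The brightest 5 were as follows. GNAS, the stimulatory G protein alpha subunit, had 12.27 ± 0.11 and GNB1, a beta subunit, 10.29 ± 0.05. The regulatory subunits of protein kinase A PRKAR2A and PRKAR1A had 10.70 ± 0.07 and 10.05 ± 0.07, and the transcription factor gene ATF4 11.09 ± 0.03. In the insulin-like growth factor system 6 of 13 genes lay above the upper quartile. IGFBP7 was the brightest at 13.43 ± 0.04, followed by IGFBP4 at 11.22 ± 0.12 and IGFBP3 at 10.23 ± 0.55, which bind and store the growth factors. IGF2 had 9.54 ± 0.45 and was lowest in replicate 2, at 8.90.

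Among markers of other cell types those of fibroblasts were the brightest list. Of 13 fibroblast markers 10 lay above the upper quartile, with a median of 10.53 and summed signals (log2 of the sum over members) of 15.29, 15.64, 15.70 and 15.60 in replicates 1 to 4. Besides the collagens these were led by the proteoglycans DCN at 12.79 ± 0.31 and LUM at 11.64 ± 0.44, with COL1A1 at 12.27 ± 0.27. Theca cells are themselves mesenchymal and can express many of these genes. Of 10 smooth muscle and pericyte markers 3 lay above the upper quartile, and their median of 7.36 was near that of all named genes. Smooth muscle actin ACTA2 had 12.39, 12.85, 12.89 and 12.84 (12.74 ± 0.24), TAGLN 10.45 ± 0.36 and smooth muscle myosin MYH11 10.36 ± 0.27. CNN1, calponin, had 8.69 and MCAM 7.43 ± 0.45.

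Endothelial markers were mostly below the median of all named genes. Of 12 markers 0 lay above the upper quartile and 3 at or below the lower quartile of the array (12.2% of all named genes), and their median was 6.04. The vascular cadherin CDH5 had 7.25, 7.73, 8.17 and 8.20 (7.84 ± 0.45), the tight junction gene CLDN5 7.57 ± 0.36, PECAM1 6.98 ± 0.62, EMCN 6.63 ± 0.42 and the angiopoietin receptor TEK 6.38 ± 0.27. For these 5 genes replicates 3 and 4 lay above replicates 1 and 2. Leukocyte markers had a median of 7.19. Of 17 markers 1 lay above the upper quartile, the MHC class II gene BOLA-DRA, with 11.84, 11.42, 12.15 and 12.17 (11.89 ± 0.35). The pan-leukocyte gene PTPRC had 8.18 ± 0.09, though its dimmest probe set was at 3.42. LCP1 had 7.72 ± 0.14, and the T cell receptor components CD3D and CD3E 7.68 ± 0.20 and 7.67 ± 0.10. No background level is known for these probe sets, so these signals were not read as cells present or absent.

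Granulosa, epithelial, oocyte and red blood cell markers were mostly dim. Of 9 granulosa markers 0 lay above the upper quartile and 4 at or below the lower quartile of the array (12.2% of all named genes), with a median of 4.46. FSHR, the receptor that defines granulosa cells, had 3.50 ± 0.19, aromatase CYP19A1 4.49 ± 0.12, AMH 4.32 ± 0.37, FOXL2 4.72 ± 0.18, the taurine transporter SLC6A6 4.46 ± 0.07 and IHH 4.06 ± 0.14. The exceptions were GATM, an enzyme of creatine synthesis, at 7.69 ± 0.45, and HSD17B1, which activates oestrogens, at 5.45, 5.70, 7.19 and 6.98 (6.33 ± 0.88), higher in replicates 3 and 4 than in 1 and 2. Of 11 epithelial markers 5 lay at or below that quartile, against the same 12.2%, while KRT18 stood at 7.99 ± 0.27, CDH1 at 6.70 ± 0.49, KRT5 at 6.46 ± 0.37 and MUC1 at 5.72 ± 0.07. CLDN4 had 4.44 ± 0.17. Oocyte genes had a median of 4.74, with GDF9 at 4.74 ± 0.05, BMP15 at 4.52 ± 0.13, ZP2 at 5.07 ± 0.18 and ZP3 at 4.91 ± 0.30, except OOEP at 7.80 ± 0.13. The 6 red blood cell genes lay between 3.18 and 4.59, led by HBB at 4.59 ± 0.05, AHSP at 4.57 ± 0.16 and HBG at 4.50 ± 0.12, with HBA at 4.43 ± 0.16 and ALAS2 at 3.74 ± 0.13.

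**Figure D2:**
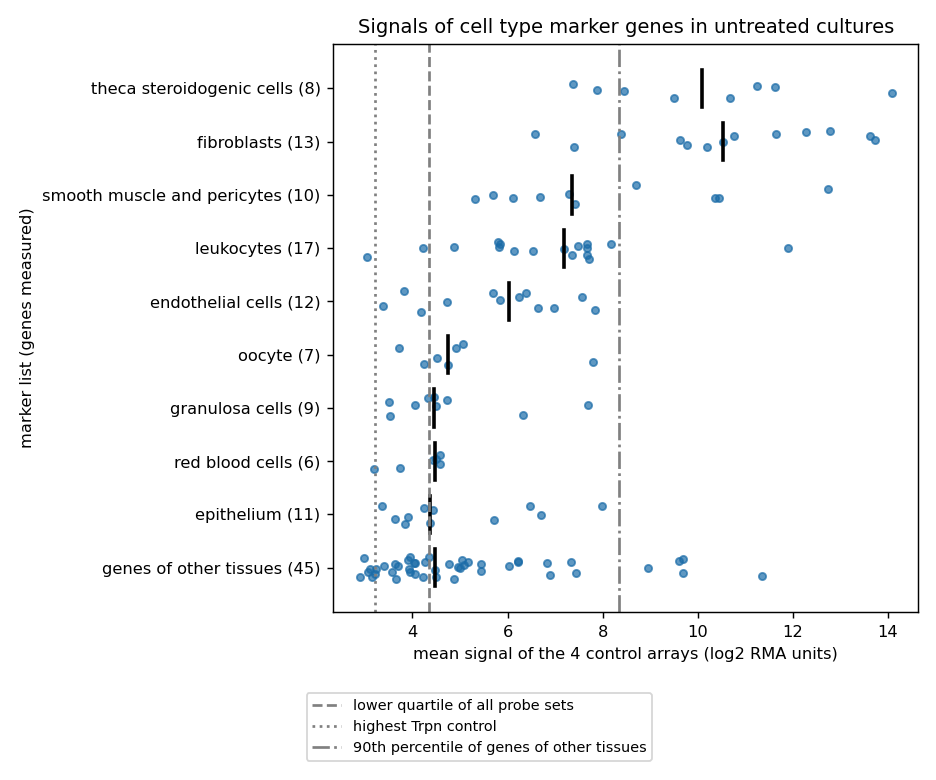
Mean signal of the 4 control arrays (x axis, log2 RMA units) for each gene (point) of 10 marker lists (y axis, with the number of genes measured), black bars marking medians. Theca markers (median 10.09) and fibroblast markers (10.53) lie right of the other lists, and 5 genes of other tissues lie right of the dash-dot line at 8.35.

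A floor of the array was sought in genes that serve other tissues, such as milk proteins, pituitary hormones, lens crystallins and liver proteins. The 45 measured genes had a median of 4.48, and 21 lay at or below the lower quartile of the array (12.2% of all named genes). The dimmest were the casein gene CSN1S1 at 2.89 ± 0.08, the placental gene PRP1 at 2.98 ± 0.09, the fibrinogen chain FGG at 3.07 ± 0.09, the muscle acetylcholine receptor CHRNA1 at 3.11 ± 0.05 and the pregnancy-associated glycoprotein PAG2 at 3.14 ± 0.04. The Trpn control probe sets, which match a bacterial gene, lay between 3.01 and 3.22. However, 5 genes of this panel lay above the upper quartile of named genes. These were prolactin, PRL, at 11.35 ± 0.12, albumin, ALB, at 9.69 ± 0.15, muscle creatine kinase, CKM, at 9.69 ± 0.29, beta casein, CSN2, at 9.60 ± 0.08, and growth hormone, GH1, at 8.95 ± 0.05. Each had other probe sets near the floor, the dimmest at 3.39 for PRL (of 6), 3.12 for ALB (of 9), 4.64 for CKM (of 2), 4.17 for CSN2 (of 3) and 4.07 for GH1 (of 6). The brightest probe set of a gene and its annotated name can therefore part ways on this array.

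The number of probe sets called near the floor depended on the limit. The 90th percentile of the panel was 8.35, and 19316 of 24016 probe sets (80.4%) lay at or below it, LHCGR and CYP17A1 among them. This limit, which follows the bright panel genes, lies far above the Trpn controls and does not mark a floor. At the median of the panel, 4.48, the count was 6443 (26.8%), and at the highest Trpn control, 3.22, it was 1483 (6.18%). By gene, 1226 of 9155 (13.4%) lay at or below 4.48 and 173 (1.89%) at or below 3.22. A low signal did not show that a transcript was missing. RPL37, a ribosomal protein gene that every cell uses, stood at 3.86 ± 0.08, and RPS19 at 4.71 ± 0.16. Both were named after their values were seen.

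Lists of general cell machinery had high medians. The 64 cytosolic ribosomal protein genes had a median of 13.12, 61 of them lay above the upper quartile and 51 were among the 100 brightest named genes. Translation factors had a median of 12.07 over 18 genes, cytoskeletal genes 11.81 over 28, chaperones 11.36 over 24 and respiratory chain genes 10.55 over 80. Of these lists 17, 27, 22 and 75 genes lay above the upper quartile. The actins ACTG1 and ACTB had 13.45 ± 0.03 and 12.95 ± 0.06, vimentin, VIM, the intermediate filament of mesenchymal cells, 13.29 ± 0.13, and annexin ANXA2 12.66 ± 0.16. EEF1G, RPSA and FAU of the translation list had 12.89 ± 0.06, 13.26 ± 0.04 and 12.57 ± 0.05. Among chaperones HSPA8 had 12.95 ± 0.03, the collagen-folding isomerase PPIB 12.92 ± 0.04, HSP90AA1 12.36 ± 0.04, HSPB1 12.35 ± 0.13 and the endoplasmic reticulum chaperone HSPA5 12.10 ± 0.08. ATP5F1A, a subunit of ATP synthase, led the respiratory chain at 12.49 ± 0.03, with COX6A1 at 12.45 ± 0.10, ATP5MG at 12.31 ± 0.07, ATP5IF1 at 12.23 ± 0.03 and COX6C at 12.18 ± 0.12.

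Matrix genes were bright too, with a median of 10.19 over 37 genes and 27 above the upper quartile. MGP, an inhibitor of calcification, had 13.16 ± 0.13 and the collagen-binding protein SPARC 13.09 ± 0.15. Among proteases and their inhibitors 14 of 29 lay above the upper quartile, with TIMP1 at 13.19 ± 0.23, the cathepsin inhibitor CST3 at 12.26 ± 0.13, A2M at 12.17 ± 0.16 and the collagen-cleaving cathepsin CTSK at 12.06 ± 0.23. Of 26 antioxidant and iron genes 17 lay above it, with the superoxide dismutases SOD2 and SOD1 at 12.62 ± 0.13 and 12.29 ± 0.04, ferritin light chain FTL at 12.54 ± 0.06 and peroxiredoxin PRDX1 at 12.35 ± 0.11. Of 17 glycolysis genes 12 lay above it, among them GAPDH at 12.70 ± 0.15, LDHB at 12.41 ± 0.07, ENO1 at 12.30 ± 0.11, ALDOA at 11.59 ± 0.08 and PGK1 at 11.48 ± 0.16.

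Most genes differed little among the 4 cultures. The median SD over 9155 genes was 0.11, and 90% of genes had an SD of at most 0.25. An SD of at least 0.5 was found for 133 genes (1.45%), and 174 genes (1.90%) spanned at least 2-fold between their highest and lowest culture. The median SD was 0.13 for genes below the lower quartile of mean signal and 0.09 for those above the upper. The most even bright genes were RPS15, RPL13A, ARF4, LOC286807, TSPAN6, CERS2, GOT1, ZC3H14, CNIH4 and DPF2, each with an SD of 0.01 and means between 8.94 and 13.54. Without replicate 1 the count of genes with an SD of at least 0.5 was 71, and without replicate 4 it was 195. With replicates 2 and 4 alone it was 116.

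**Figure D3:**
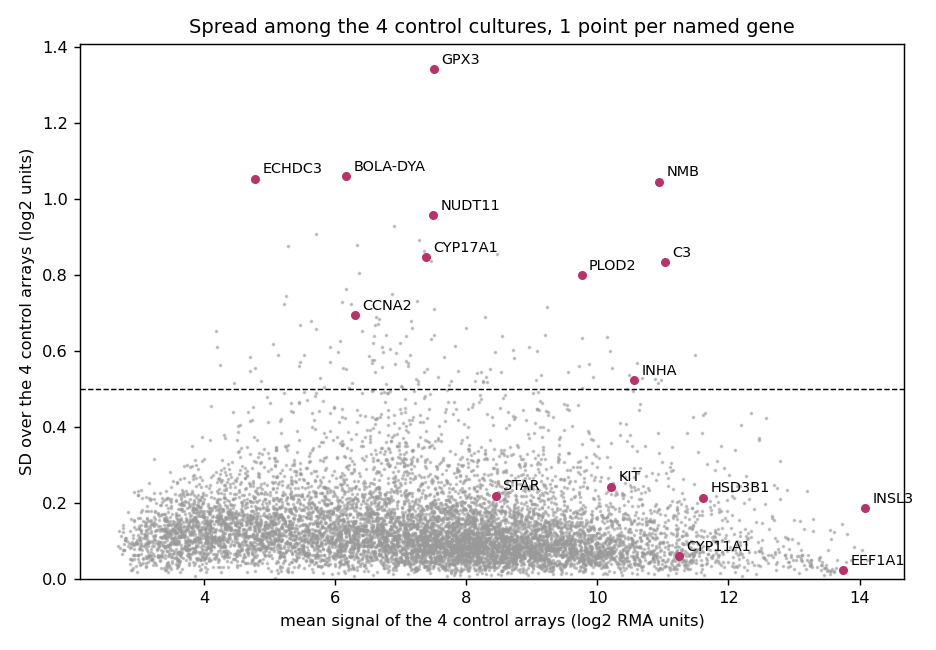
SD over the 4 control arrays (y axis, log2 units) against mean signal (x axis, log2 RMA units), 1 grey point for each of 9155 named genes. Red points are named genes, and the dashed line marks an SD of 0.5, above which GPX3 (1.34), BOLA-DYA (1.06), ECHDC3 and NMB (both 1.05) lie farthest.

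The 20 genes with the largest SD mixed endocrine, metabolic and inflammatory functions. GPX3, a secreted glutathione peroxidase, had 8.43, 8.82, 5.97 and 6.82 (7.51 ± 1.34), so that replicates 1 and 2 lay more than 1.5 log2 units above replicates 3 and 4. NUDT11 and NUDT10, phosphohydrolases of inositol pyrophosphates, ran the same way, at 8.51, 8.08, 6.47 and 6.91 for NUDT11 (7.49 ± 0.96) and 6.35, 5.63, 4.57 and 4.54 for NUDT10 (5.27 ± 0.88). NMB, given above, did so as well. CYP17A1 and ATP4B, the beta subunit of the gastric proton pump, stood out in replicate 1 only, with 7.53 there and 5.96, 5.74 and 6.19 in the others for ATP4B. ECHDC3, an enoyl-CoA hydratase domain protein, had 5.77 and 5.60 in replicates 1 and 4 and 3.86 and 3.87 in replicates 2 and 3. PLOD2, a lysyl hydroxylase of collagen, was low in replicate 1, with 8.60 against 10.01, 10.43 and 10.02.

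The other 12 of the 20 genes were higher in replicates 3 and 4 than in 1 and 2. The complement component C3 had 10.36, 10.26, 11.71 and 11.79 (11.03 ± 0.83). PTGS2, the inducible prostaglandin synthase, had 6.95, 6.33, 8.01 and 8.12 (7.35 ± 0.86), and NOS2, the inducible nitric oxide synthase, 6.82, 6.68, 8.01 and 8.34 (7.46 ± 0.84). The MHC class II gene BOLA-DYA had 5.99 and 4.73 in replicates 1 and 2 and at least 6.93 in replicates 3 and 4 (6.16 ± 1.06), and CSF2RB, a receptor subunit for myeloid growth factors, 6.23, 5.96, 7.72 and 7.67 (6.90 ± 0.93). In this group were also HSD17B1, the metalloprotease ADAM12 (5.71 ± 0.91), the phospholipase-like PLBD1 (7.28 ± 0.89), the glycolytic regulator PFKFB3 (6.87 ± 0.75), the protease-activated receptor F2RL1 (5.26 ± 0.74) and the loci LOC281376 (8.48 ± 0.86) and LOC767968 (6.16 ± 0.76). Their higher and lower pairs of cultures did not overlap. Among the 20 genes 12 kept a place among the 20 most variable without replicate 1, and 11 with replicates 2 and 4 alone.

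**Figure D4:**
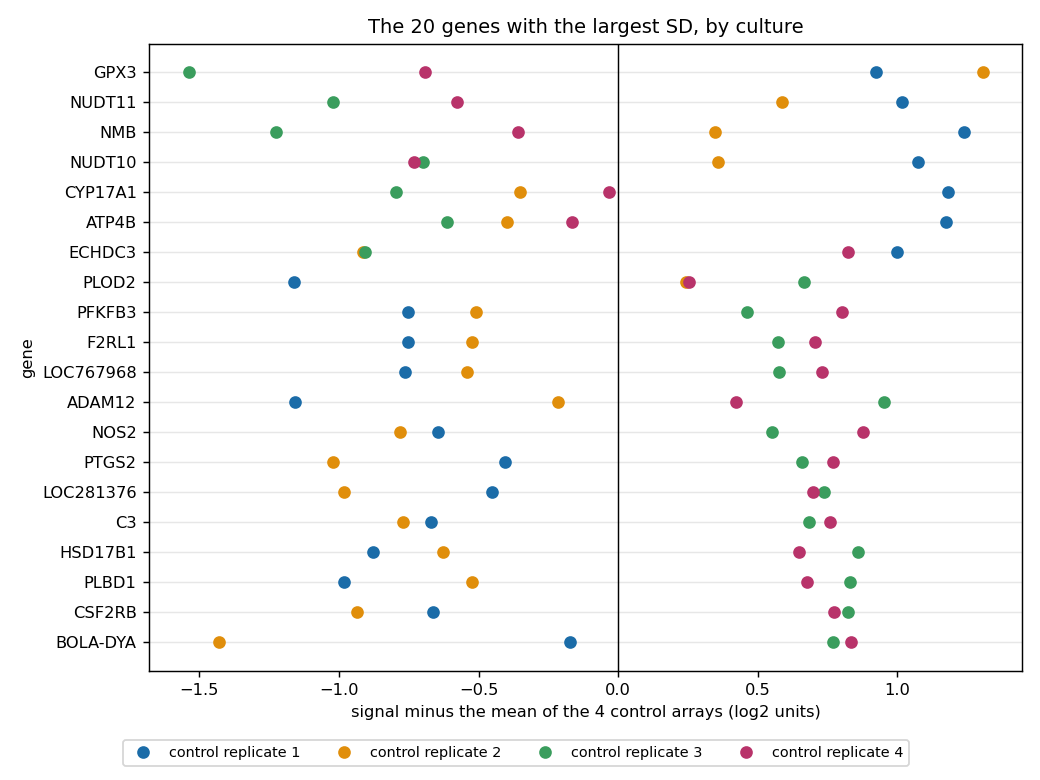
Signal minus the mean of the 4 control arrays (x axis, log2 units) for the 20 genes with the largest SD (y axis), 1 coloured point per culture. Replicates 1 and 2 lie on the opposite side of the mean from replicates 3 and 4 for 16 of the 20 genes.

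A division of cultures 1 and 2 from cultures 3 and 4, noticed after the values were seen, was frequent among the variable genes. It was found for 84 of the 133 genes with an SD of at least 0.5 (63.2%), and for 2564 of all 9155 genes (28.0%). The 133 genes were picked by the SD of the same 4 values, and a division into pairs raises an SD. Other pairings of the cultures were not counted, so these shares do not show that this division stands out. Of the 84 genes 65 were higher in cultures 3 and 4 and 19 in cultures 1 and 2. Among the 65, the cultures given LH had the same direction between these numbers for 48 genes (73.8%), those given BMP6 for 39 (60.0%) and those given LH+BMP6 for 26 (40.0%). Over all 1089 genes that were higher in control cultures 3 and 4 the shares were 62.6%, 57.9% and 51.6%. Among the 19 genes the counts were 10 (52.6%), 9 (47.4%) and 13 (68.4%), and over all 1475 genes that were higher in control cultures 1 and 2 the shares were 55.5%, 48.6% and 51.8%. The hybridisation controls were low in replicates 1 and 3, and their part in this division was not tested.

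Gene lists also differed among the cultures, each gene taken against its own mean of the 4 arrays. Cell cycle genes were lowest in replicate 1 for 23 of 25 members, where 27.4% of all named genes were lowest. Their median deviation was -0.53 in replicate 1, 0.29 in replicate 2, 0.26 in replicate 3 and -0.15 in replicate 4. PCNA, the DNA replication clamp, had 10.27, 10.69, 10.69 and 10.39, and RRM2, which makes deoxynucleotides, 8.90, 9.87, 9.84 and 9.36. The helicase subunits MCM6 and MCM7 had 8.54 and 8.44 in replicate 1 and between 8.50 and 9.11 in the others. CDKN1A, an inhibitor of the cell cycle, ran the other way, at 10.60 in replicate 1 against 10.02, 10.18 and 10.15. In the other groups replicate 1 was lowest for 22 of the 25 genes under LH, 9 under BMP6 and 8 under LH+BMP6, where it was lowest for 29.1%, 27.5% and 25.7% of all named genes. The last 2 counts are near those shares.

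Matrix and cytoskeletal genes were low in the same culture. Replicate 1 was lowest for 26 of 37 matrix genes, 10 of 13 fibroblast markers and 20 of 28 cytoskeletal genes. Of all named genes 27.4% were lowest there, and the matrix and fibroblast lists share members such as COL1A2, COL3A1 and DCN. The median deviations in replicate 1 were -0.25, -0.35 and -0.13. COL1A1, for example, had 11.90, 12.29, 12.55 and 12.36, and TAGLN 9.96, 10.62, 10.81 and 10.40. Replicate 1 of the LH group was lowest for 17 matrix, 9 fibroblast and 20 cytoskeletal genes, against 29.1% of all named genes. Under BMP6 the counts were 10, 2 and 2, against 27.5% of all named genes. Under LH+BMP6 they were 11, 1 and 5, against 25.7%. The low signals of replicate 1 were thus not seen again in most members there, and the matrix counts are near those shares. Replicate 2 was lowest for 23, 10 and 21 genes under BMP6, against 32.3% of all named genes. Under LH+BMP6 it was lowest for 21, 9 and 20, against 28.5%. Under BMP6 replicate 1 was instead the highest for 20 of the 28 cytoskeletal genes, against 22.4% of all named genes. In the controls replicate 3 was highest for 13 of 17 glycolysis genes and 20 of 28 cytoskeletal genes, where 23.6% of all named genes were highest. In the LH, BMP6 and LH+BMP6 groups replicate 3 was highest for 3, 3 and 1 of the glycolysis genes, and replicate 2 for 8, 13 and 15. Of all named genes 22.1%, 26.9% and 14.0% were highest in replicate 3 of these groups, and 28.4%, 32.2% and 27.7% in replicate 2. The actin 3 prime excess was also lowest in replicate 1 (1.69 against 2.27 to 2.49), while that of GAPDH was highest there (0.41 against 0.29 to 0.35). The part of RNA quality in these differences was not tested.

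Inflammatory genes were mostly higher in control cultures 3 and 4 than in 1 and 2. Of 25 chemokine and inflammation genes 20 were highest in replicate 3 or 4 and 22 lowest in replicate 1 or 2, where 42.4% and 49.0% of all named genes were. Under LH 13 were highest in replicate 3 or 4, under BMP6 9 and under LH+BMP6 6, against 44.4%, 45.4% and 43.6% of all named genes. Replicate 2 was the highest for 16 of the 25 genes under BMP6 and 19 under LH+BMP6, against 32.2% and 27.7% of all named genes. In the controls the median deviations of the 25 genes in replicates 1 to 4 were -0.23, -0.17, 0.14 and 0.24. Among the brightest members, the chemokine CCL2 had 11.32, 11.22, 11.50 and 11.56, the adhesion molecule VCAM1 11.12, 11.30, 11.52 and 11.44, and the chemokine CXCL5 10.76, 10.94, 11.48 and 11.38. ICAM1 (10.38 ± 0.21) was highest in replicate 1, at 10.68, and the NF-kappa-B inhibitor NFKBIA (10.25 ± 0.05) in replicate 4. Of the 12 endothelial markers 9 were highest in replicate 3 or 4 and 11 lowest in replicate 1 or 2, and in the LH, BMP6 and LH+BMP6 groups 9, 8 and 8 were highest in replicate 3 or 4. Their summed signals in the controls were 9.50, 9.78, 10.27 and 10.23. The summed signals of the 17 leukocyte markers were 12.49, 12.22, 12.66 and 12.67. No marker is at 0 on this scale, and their part in the order of the inflammatory genes was not tested.

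Sterol synthesis genes had another order. Replicate 2 was the highest culture for 15 of 16 genes of cholesterol synthesis and uptake, where 25.7% of all named genes were highest, with median deviations of -0.03, 0.20, -0.06 and -0.13 in replicates 1 to 4. In the other groups replicate 1 was the highest, for 16 of these genes under LH, 12 under BMP6 and 14 under LH+BMP6, against 27.2%, 22.4% and 28.6% of all named genes. The theca markers had median deviations of 0.18, 0.00, -0.20 and 0.00. In the controls 4 of 8 were highest in replicate 1 and 5 of 8 lowest in replicate 3, where 31.9% and 27.7% of all named genes were. Under LH, BMP6 and LH+BMP6 replicate 1 was highest for 8, 2 and 1 of them, against 27.2%, 22.4% and 28.6% of all named genes. Replicate 3 was lowest there for 2, 0 and 3, against 21.1%, 20.2% and 17.1%. Ribosomal protein genes had a median SD of 0.05 and median deviations between -0.03 and 0.03.

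**Figure D5:**
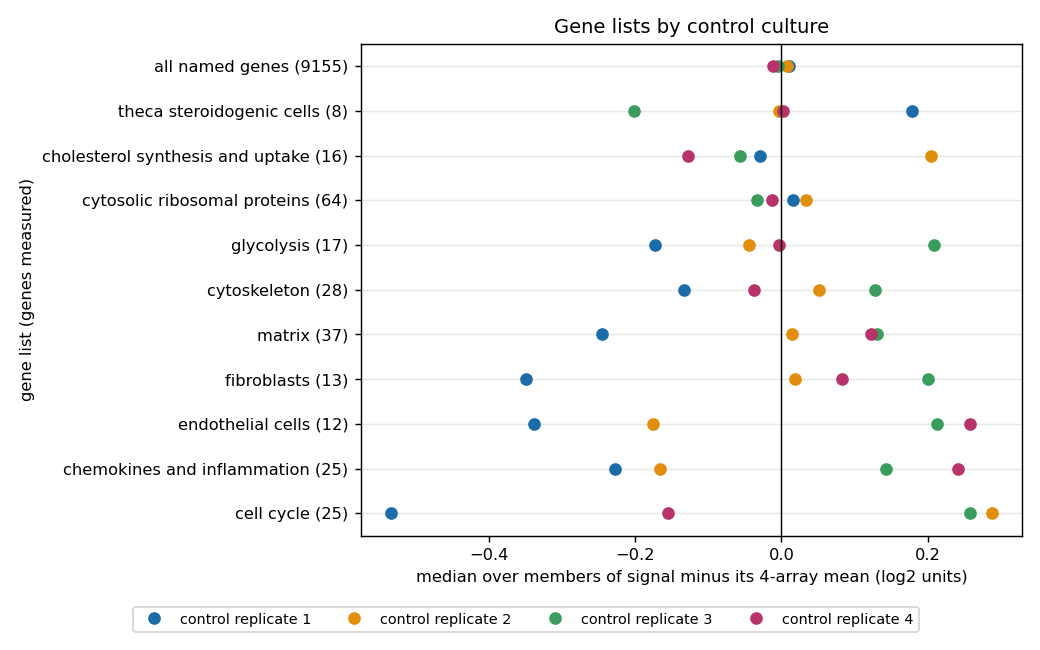
Median over the members of each gene list (y axis, with the number of genes) of the signal minus its mean over the 4 control arrays (x axis, log2 units), 1 coloured point per culture. Cell cycle genes in replicate 1 lie farthest from 0, at -0.53, while all named genes lie at 0.01 or nearer.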

How the data were processed

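The value table of 16 arrays was used as deposited, and 0 per-sample columns were left unused. Its log2 signals were made by the authors with RMA in Affymetrix Expression Console, per the submitters' processing notes. No version is given in the sources used here. RMA equalises the arrays' distributions, so differences in total RNA are not visible. Of 24128 probe sets, 112 Affymetrix controls were set aside. GEO's platform annotation named 13292 of the others with 1 gene, 86 with several and 10638 with none. Entrez identifiers found in the current RefSeq table (13263) changed 0 symbols.

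Means, SDs and ranks over the 4 control arrays were computed with Python 3.11.15, pandas 2.3.3 and numpy 2.4.6, and checked on simulated data. Each gene was represented by its brightest probe set on these arrays. No test between groups was run, since no groups were compared, and 4 arrays limit the precision. Dixon's criterion for a lone value, given below, was applied to the named genes. Named were the 25 genes of highest mean, the 20 of largest SD, the 10 of smallest SD above the upper quartile of mean signal, up to 5 of each of 30 lists (also the 5 dimmest genes of other tissues), all members of the theca, granulosa, steroid synthesis and receptor lists, and the 3 genes per array farthest from the other arrays. Members and lists were chosen with earlier results of these data known. Alternatives covered the normalization, the choice of probe sets, the arrays used and the limits.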

Additional observations from a re-analysis of the deposited data

Results flagged for a closer look

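For 7 of 223 named genes (3.14%) 1 control array lay far from the other 3 by Dixon's criterion for a lone value, the gap to the nearest array as a share of the whole range. Chance flags about 1 in 20 such groups of 4 values where the groups are not picked by those values. Some of the 223 genes were picked by their SD or by a far array, so the shares cannot be compared. The lone array was replicate 1 for 2 genes, replicate 2 for 2, replicate 3 for 1 and replicate 4 for 2. In replicate 1 ACTA2 was low, at 12.39 against 12.84 to 12.89 (gap 0.899 of the range), and CHRNA1 high, at 3.20 against 3.08 to 3.09 (0.909). In replicate 2 ADM was high, at 11.55 against 10.92 to 11.01 (0.867), and LOC515676 low, at 13.79 against 13.95 to 13.98 (0.838). In replicate 3 GOT1 was low (0.902), though its 4 values span only 8.92 to 8.94. In replicate 4 IHH was low, at 3.85 against 4.11 to 4.16 (0.857), and NFKBIA high, at 10.32 against 10.21 to 10.23 (0.866).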

How the results depend on the processing

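Of the 25 brightest genes, 25 kept their place without any single array, and 14 did so with the mean or the lowest probe set of a gene, the latter chosen after seeing the data. The level of a named gene moved by more than its SD for 74 of 223 genes with the mean of its probe sets and 79 with the lowest. Without probe sets marked as shared it moved for 6 of 222, and under the other settings run for 0. For left-out arrays, the median over the arrays and centring each array on its median that 0 was fixed in advance. The first settings cannot shift a mean of 4 values by as much as their SD, and centring cannot shift it at all. Quantile normalization had little left to change after RMA. The 0 therefore says nothing about stability. The median of 13 of 30 lists lay above the upper quartile of genes (13 to 14 without 1 array), and of 8 lists above the top 10% of genes. Probe sets at or below the limit were 19316 (19276 to 19358 without 1 array), 6443 with the median of the panel, 6004 with the lower quartile of all probe sets and 1483 with the highest Trpn control. Genes with an SD of at least 0.5 were 133 (71 to 195 without 1 array), of which 33 lay above the 8.35 limit. Of the 20 most variable genes 12 to 18 were kept without 1 array, 11 with replicates 2 and 4 alone, and 4 above that limit. No paired analysis was possible because no groups were compared. The cause of these changes was not tested.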

Other observations

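The proteasome list held 28 of 32 genes above the upper quartile of named genes, with a median of 10.11. PSMA6, PSMA7, PSMB9, PSMB4 and PSMA3 led it, at 11.92 ± 0.06, 11.82 ± 0.09, 11.80 ± 0.12, 11.68 ± 0.08 and 11.60 ± 0.03. PSMB9 is a catalytic subunit of the immunoproteasome, the form that makes peptides for MHC class I. The other catalytic subunits of that form, PSMB10 and PSMB8, named after their values were seen, stood at 11.44 ± 0.13 and 11.10 ± 0.19. Mitochondrial ribosomal protein genes had a lower median of 8.62, with 28 of 65 above the upper quartile, led by MRPL27 at 10.55 ± 0.05, MRPL3 at 10.42 ± 0.16, MRPL9 at 10.40 ± 0.16, MRPS23 at 10.26 ± 0.05 and MRPL53 at 10.19 ± 0.06.

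Among the 100 brightest probe sets 16 had no single gene name in the annotation used here, and 4 of the 25 brightest had none.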
